A study of Mus musculus with 8 samples.

Results

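The proteasome genes of TM3 cells, an established mouse Leydig cell line, were described in cells exposed to bisphenol A (BPA), an industrial chemical with estrogen-like activity, and in normal cells. Members were the genes whose symbol starts with Psma, Psmb, Psmc, Psmd or Psme and a digit, without pseudogenes. The count table held 41 of them among 12404 genes. Psma8, Psmb8, Psmb9 and Psmb11 also meet the rule and are not analysed here. Psmc3ip meets it by its letters but encodes Hop2, a cofactor of meiotic recombination. It is counted as a member but named apart from the other 40. Each condition had 2 RNA-seq libraries and 2 MeRIP libraries, in which an antibody enriches RNA fragments that carry N6-methyladenosine (m6A). RNA-seq also served as the MeRIP input, per the design text. The labels give no dose and no exposure time, and both conditions used the same line. They do not say whether replicates came from separate cultures, so the spread behind each p-value is that of these libraries and may be technical.

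The proteasome degrades proteins that carry ubiquitin chains and is the main protease of the cytosol and nucleus. Its 20S core is a barrel of outer alpha rings, which gate the entrance, and inner beta rings, which hold the proteolytic sites. The 19S regulatory particle recognises, deubiquitinates and unfolds substrates, with a ring of ATPases (Psmc genes) and a set of non-ATPase subunits (Psmd genes). Psme genes encode alternative caps. Interferon brings in inducible beta subunits such as Psmb10, and the transcription factor NRF1, encoded by Nfe2l1, induces subunit genes when proteasome activity is low.

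Promoters came from RefSeq (GRCm38.p6) as windows of 250 bases before and 50 after a start, and 35 of the 41 members had an entry. Psmb1, Psmb2, Psmb7, Psmc3, Psmd3 and Psmd7 had none. Shown first are the promoters of Psma5, Psme1 and Psmb5, the 3 members without a read in either BPA library, and then that of Psmd2, which had 2843 to 5012 reads in all 4 libraries. Capitals mark the interferon response motif (TTTC, any 2 bases, TTTC) in Psme1, the antioxidant response element core TGACNNNGC in Psmb5, and the ETS motif CCGGAAG, present on the opposite strand, in Psmd2. The Psma5 window holds none of the 7 motifs searched and has no capitals.
Psma5, chr3:108256676-108256975, plus strand: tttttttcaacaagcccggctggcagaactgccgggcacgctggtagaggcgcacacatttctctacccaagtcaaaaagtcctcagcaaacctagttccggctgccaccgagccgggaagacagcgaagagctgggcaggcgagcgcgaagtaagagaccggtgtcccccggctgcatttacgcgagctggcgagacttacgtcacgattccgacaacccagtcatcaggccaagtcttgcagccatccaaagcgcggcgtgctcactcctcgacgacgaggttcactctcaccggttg
Psme1, chr14:55578244-55578543, plus strand: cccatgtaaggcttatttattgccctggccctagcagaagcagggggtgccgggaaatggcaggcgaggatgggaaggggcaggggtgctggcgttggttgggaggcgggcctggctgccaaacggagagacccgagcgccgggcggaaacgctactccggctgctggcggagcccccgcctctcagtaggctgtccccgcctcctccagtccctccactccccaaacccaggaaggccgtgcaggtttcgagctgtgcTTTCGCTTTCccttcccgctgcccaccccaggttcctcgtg
Psmb5, chr14:54617946-54618245, minus strand: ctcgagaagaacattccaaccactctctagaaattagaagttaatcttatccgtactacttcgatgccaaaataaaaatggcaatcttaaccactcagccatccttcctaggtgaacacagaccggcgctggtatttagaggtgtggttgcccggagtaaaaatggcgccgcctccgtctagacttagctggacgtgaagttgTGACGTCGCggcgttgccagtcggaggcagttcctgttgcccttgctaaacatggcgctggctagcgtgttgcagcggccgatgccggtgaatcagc
Psmd2, chr16:20651402-20651701, plus strand: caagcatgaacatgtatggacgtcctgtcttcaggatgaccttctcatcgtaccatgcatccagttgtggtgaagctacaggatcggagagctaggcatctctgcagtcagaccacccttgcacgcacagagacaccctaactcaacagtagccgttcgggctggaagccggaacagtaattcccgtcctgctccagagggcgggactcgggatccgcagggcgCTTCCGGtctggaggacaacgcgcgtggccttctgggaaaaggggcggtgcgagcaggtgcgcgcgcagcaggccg
The motifs were searched on both strands in 38 member windows and in all 32851 windows of the table. The ETS motif CCGGAAG was in 14 member windows (36.8%) and in 8.86% of all windows. Its holders were Psma6, Psmc1, Psmc2, Psmc6, Psmd2, Psmd4, Psmd6, Psmd11, Psmd12, Psmd13, Psme3, Psme4 and Psmc3ip, most of them 19S genes. The element TGACNNNGC, which NRF1 and NRF2 can bind, was in 6 member windows (15.8%) and in 12.4% of all windows. The interferon response motif was in 4 member windows (10.5%), those of Psmb3, Psmd4, Psmd9 and Psme1, and in 3.44% of all windows. CCAAT was in 34.2% of member windows and 37.4% of all, and the TATA box TATAAA in 7.89% of member windows and 13.6% of all. The palindrome of nuclear respiratory factor (GCGCA joined to TGCGC) was in the Psma2 window (2.63% of member windows, 0.971% of all), and the YY1 motif AAGATGGCG in those of Psmb6 and Psmc5 (5.26% of member windows, 1.40% of all). Overlaps between motifs were not removed, and a match describes letters in this window only.

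The RNA-seq libraries held 8813870 and 6305121 reads in BPA and 10455643 and 7517482 reads in normal cells. Over all rows of the table the median gene had 15 and 2 reads in BPA and 233 and 150 reads in normal cells. The BPA libraries therefore had many genes with few reads, and 38.4% and 47.4% of rows had 1 read or none, against 25.8% and 19.9% in normal cells. Of the 10 Leydig cell markers checked, among them Star, Cyp11a1 and Cyp17a1, Scarb1 alone was a row of the table, so the labelled cell type could not be checked further. Macrophage markers were checked because immune cells carry inducible proteasomes. Of 7, the table held Cd68 and Lyz2, which went opposite ways. Cd68 had 20.2 and 81.5 CPM (reads scaled to library size) in BPA and 0 and 7.57 CPM in normal cells. Lyz2 had 0.116 and 0 CPM in BPA and 10.9 and 0 CPM in normal cells. The part of these genes in the results was not tested. Of the other lists, the table held 4 of 6 Sertoli cell markers, 0 of 6 germ cell markers and 2 of 6 smooth muscle and endothelial markers. Sums of the Sertoli markers overlapped between conditions, at 280 and 135 CPM for BPA against 155 and 309 CPM for normal. From the last list Acta2 and Des were rows, while the endothelial markers Pecam1, Cdh5 and Vwf were absent. Acta2 was at 57.9 and 237 CPM with BPA, where the normal libraries gave 6.93 and 45.1 CPM. Des had 3 reads in BPA replicate 1 and 0 in every other library. Ptprc, Csf1r and Adgre1 are not analysed here.

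The comparison of BPA with normal cells asked which RNAs differ after exposure. Genes of the alpha ring mostly had positive log2 fold changes and genes of the 19S non-ATPase part mostly negative ones. Psma5, Psmb1, Psmb10 and Psme1 had at most 5 reads in each BPA library and 84 to 403 reads in each normal library. None of these differences passed edgeR's quasi-likelihood test, which called 0 of the 40 tested members and 0 of 8645 tested genes (0.0%) at a Benjamini-Hochberg adjusted p of 0.05. The smallest adjusted p of a member was 0.372. Before adjustment 0 members lay under a p of 0.05, where 9.64% of all tested genes did, 208 higher and 625 lower. With size factors in place of TMM scaling these were 328 higher and 429 lower, and the median over all tested genes was 0.12 in place of -0.02 (log2 fold change). DESeq2 called 1 member, Psma5, as lower, where it called 2.53% of all tested genes as lower and 0.521% as higher.

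Proteasome genes took 0.443% and 0.456% of all BPA reads and 0.532% and 0.517% of all normal reads. On CPM scaled by TMM, which adjusts for composition, the 40 genes without Psmc3ip summed to 4542 and 5377 CPM in BPA and to 4796 and 4972 CPM in normal cells. The share of reads was thus lower in both BPA libraries, while the scaled sums overlapped. The ratio of mean sums, BPA over normal, was 0.861 on all reads, 1.02 with TMM and 1.12 with size factors, so its direction depends on the scaling. In such bulk libraries fewer cells with an RNA and less RNA per cell cannot be told apart. Of the 40 tested members, which include Psmc3ip and lack Psmb5, 18 had positive and 22 negative log2 fold changes. Negative were 55.0%, beside 50.5% of all tested genes, and the median of the members was -0.16. Without Psmc3ip 39 were tested, 18 positive and 21 negative, with a median of -0.07.

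**Figure D1:**
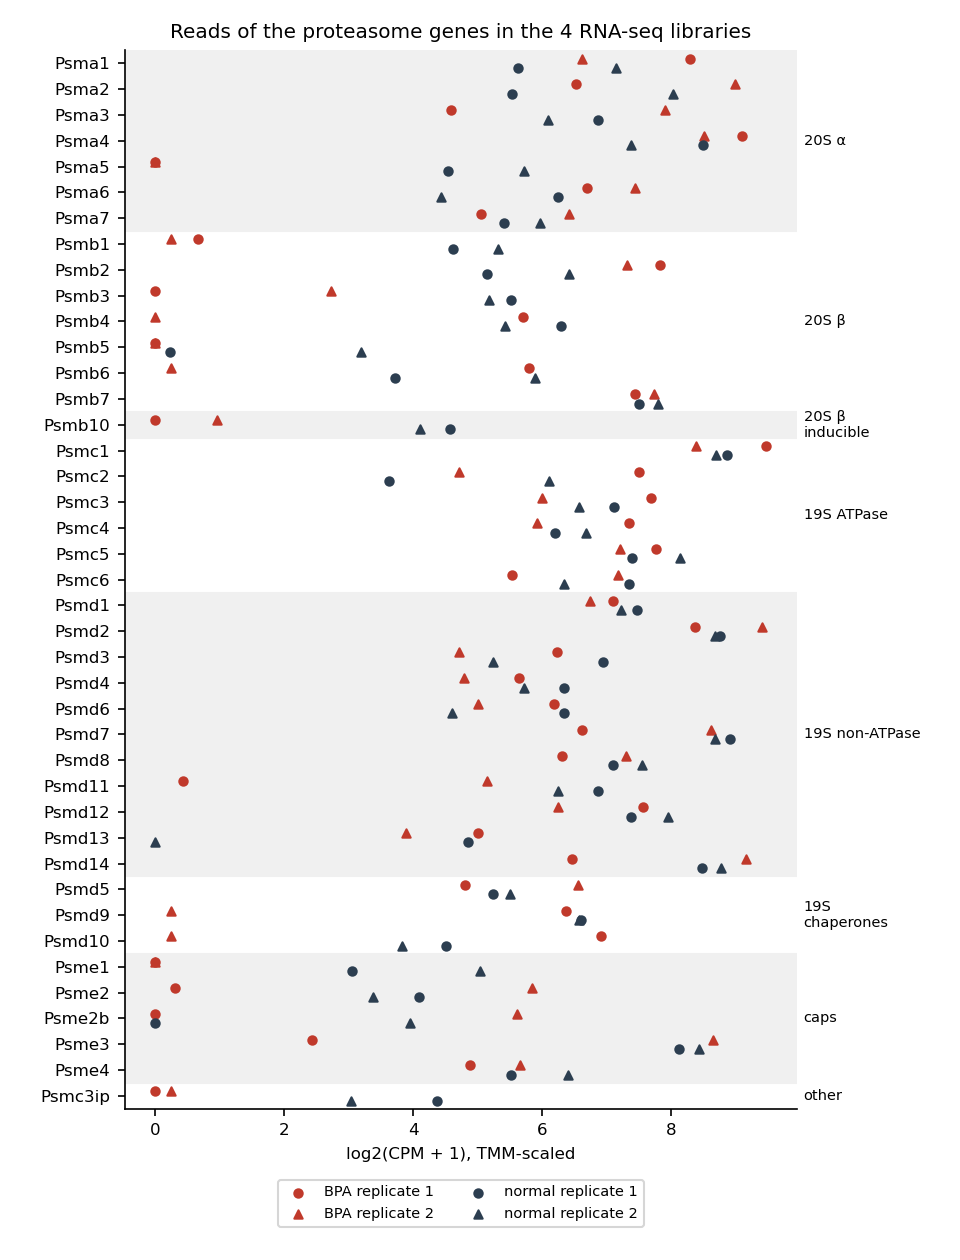
Level of each of the 41 genes in each RNA-seq library, as log2(CPM + 1) with TMM scaling, BPA in red and normal cells in dark blue, circles for replicate 1 and triangles for replicate 2, in bands by part of the proteasome. Psma5, Psmb5 and Psme1 sit at 0 in both BPA libraries, and the BPA replicates of Psme3, Psmd9, Psmd10 and Psmd11 lie far apart.

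The distance between replicates was described for each condition. On log2(CPM + 1) the median absolute difference between replicates over the tested members was 1.39 in BPA and 0.71 in normal cells, and over all tested genes it was 1.64 in BPA and 0.83 in normal cells. The replicates lay more than 4-fold apart in 14 members in BPA (45.9% of all tested genes) and in 5 in normal cells (19.1% of all). Both BPA libraries lay below both normal libraries in 11 members, or 27.5%, beside 27.2% of all tested genes. They lay above in Psma4, Psma6 and Psmb2, or 7.50%, beside 12.8% of all. The 11 were Psma5, Psmb1, Psmb3, Psmb10, Psmd1, Psmd4, Psmd7, Psmd9, Psmd11, Psme1 and Psmc3ip, a share near the background.

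Alpha ring genes, 7 in all, summed to 1111 and 1467 CPM in BPA and to 707 and 767 CPM in normal cells, so the sums did not overlap. Among single genes of the ring, Psma4 and Psma6 alone had both BPA libraries above both normal ones. Psma4 made up 550 and 364 CPM of the BPA sums and 358 and 165 CPM of the normal sums. The ratio of the means was 1.75 with TMM, 1.48 on all reads and 1.93 with size factors. The log2 fold change was positive in 6 of these genes and its median over the 7 was 0.80, though Psma2, Psma3 and Psma7 were negative without BPA replicate 2 and Psma7 also without normal replicate 1. Psma4, or alpha3, whose tail helps to close the gate, had 4732 and 1949 reads in BPA and 4130 and 1285 reads in normal cells, which is 457 ± 131 and 261 ± 137 CPM (SD, n = 2 each). Its log2 fold change was 0.80 ± 0.58 (SE), with an adjusted p of 0.606 in edgeR. Here and below, the SE was back-calculated from edgeR's F statistic and is not an error estimated by the fit. On CPM both BPA libraries lay above both normal ones, the lower BPA value close to the higher normal value.

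Psma6, or alpha1, had 885 and 928 reads in BPA and 864 and 160 reads in normal cells, with a log2 fold change of 1.39 ± 1.00 (SE). Normal replicate 2 was the low library, and over the fits that each leave out a library the value lay between 0.89 and 2.77. Psma1, or alpha6, had 2677 and 523 reads in BPA and 559 and 1096 reads in normal cells. One BPA library was high and the groups overlapped, with a log2 fold change of 1.25 ± 0.86 (SE).

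Psma2, or alpha2, had 788 and 2722 reads in BPA and 523 and 2035 reads in normal cells, a log2 fold change of 0.97 ± 0.91 (SE). In both conditions the second library was the high one. Psma3, or alpha7, had 198 and 1277 reads in BPA and 1342 and 523 reads in normal cells, and Psma7, or alpha4, had 278 and 451 in BPA and 479 and 482 reads in normal cells. Both genes overlapped between groups, with log2 fold changes of 0.32 and 0.10.

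Psma5, or alpha5, stood apart from the rest of its ring. It had 0 reads in both BPA libraries and 256 and 403 reads in normal cells, which is 36.9 ± 20.9 CPM in normal cells (SD, n = 2). Taking 3 counts in the pair of BPA libraries as the floor, it was at least 159-fold lower in BPA, a bound that covers counting error only. The adjusted p was 0.372 in edgeR and 0.0404 in DESeq2. Its promoter window, printed above, held none of the motifs.

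**Figure D2:**
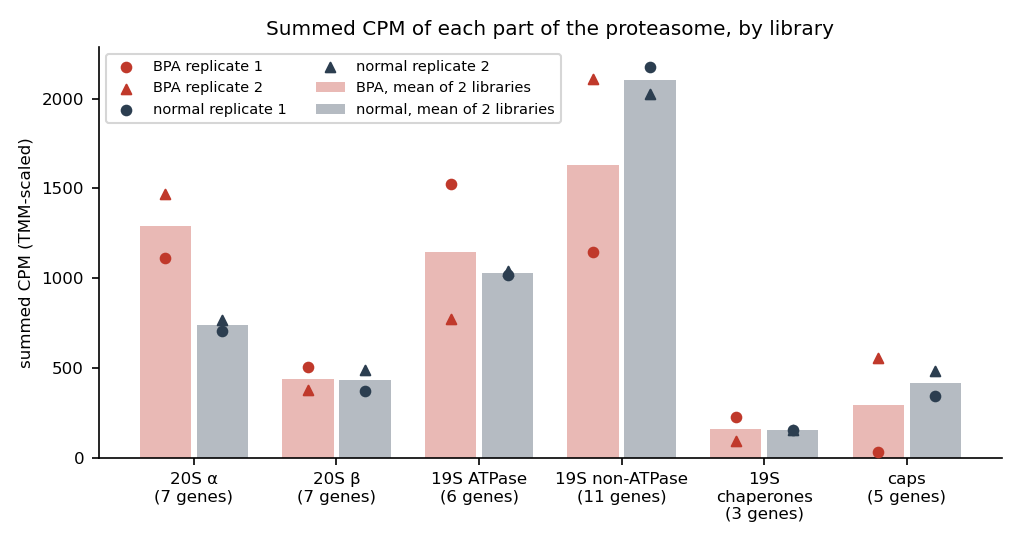
Summed TMM-scaled CPM of the genes of each part of the proteasome, with bars for the mean of the 2 libraries of a condition and points for each library, BPA in red left of normal cells in dark blue. The alpha ring sums of 1111 and 1467 CPM in BPA lie above the 707 and 767 CPM of normal cells, and in the other 5 parts drawn the ranges of the conditions overlap. Of the single alpha ring genes, Psma4 and Psma6 alone separate in that direction.

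Beta ring genes, 7 in all with 6 tested, summed to 505 and 376 CPM in BPA and to 374 and 489 CPM in normal cells. The ratio of the means was 1.02 with TMM, 0.883 on all reads and 1.13 with size factors, so no direction held across scalings. Within the ring the genes went apart. Psmb2, or beta4, had 1939 and 847 reads in BPA and 398 and 657 reads in normal cells, which is 192 ± 47.4 and 59.4 ± 35.2 CPM (SD, n = 2 each). Both BPA libraries were high, with a log2 fold change of 1.79 ± 0.88 (SE), and its adjusted p in edgeR was 0.372.

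Psmb1, or beta6, had 5 and 1 reads in BPA and 271 and 304 reads in normal cells, with a log2 fold change of -6.08 ± 3.04 (SE). Psmb3, or beta3, had 0 and 30 reads in BPA and 514 and 275 reads in normal cells, with a log2 fold change of -4.22. In both genes every BPA value lay below every normal value, and the adjusted p in edgeR was 0.374 for Psmb1 and 0.386 for Psmb3. Psmb4, or beta7, had 439 and 0 reads in BPA and 897 and 326 reads in normal cells, so a single BPA library held all its BPA reads.

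The active site subunits differed in how evenly they were counted. Psmb7, the trypsin-like beta2, had 1492 and 1131 reads in BPA and 2090 and 1734 reads in normal cells, which is 192 ± 26.9 and 202 ± 29.2 CPM (SD, n = 2 each). Its log2 fold change was -0.07 ± 0.67 (SE), with all 4 libraries close together. Psmb6, the caspase-like beta1, had 467 and 1 reads in BPA and 140 and 452 reads in normal cells, so the groups overlapped. Psmb5, the chymotrypsin-like beta5 and the target of bortezomib, had 0 reads in both BPA libraries and 2 and 63 reads in normal cells, too few for the filter on low counts. It was at least 15.6-fold lower in BPA against the same floor, with nearly all reads in normal replicate 2.

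Psmb10, or beta2i, replaces Psmb7 in the immunoproteasome. It had 0 and 5 reads in BPA and 263 and 127 reads in normal cells, which is 0.467 ± 0.661 and 19.5 ± 4.60 CPM (SD, n = 2 each). The groups did not overlap, and its log2 fold change of -5.75 ± 2.82 (SE) had an adjusted p of 0.372 in edgeR and of 0.654 in DESeq2. Psma5, Psmb1, Psmb10, Psme1 and Psmc3ip had at most 10 reads in each BPA library and at least 50 in each normal library. These genes were 12.2% of the 41 members, beside 8.90% of all rows of the table. In the opposite direction there were 0 members, beside 0.153% of all rows.

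**Figure D3:**
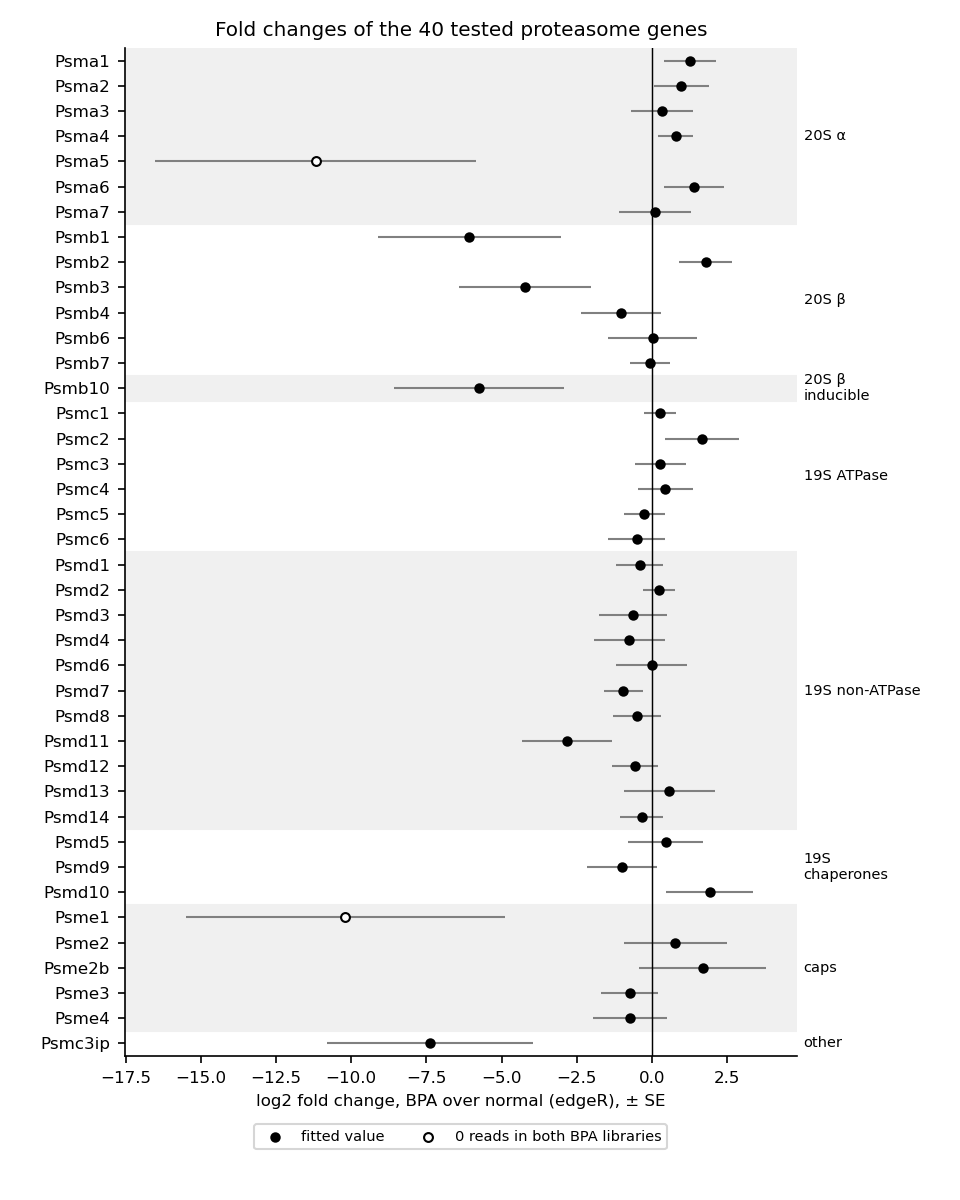
Fitted log2 fold change of BPA over normal cells with its SE for each of the 40 tested genes, in bands by part of the proteasome, with open circles for genes with 0 reads in both BPA libraries, whose fitted value is no bound. Psma5, Psmb1, Psmb3, Psmb10, Psme1 and Psmc3ip lie far to the left with wide errors, and most others lie near 0. Each SE was back-calculated from the F statistic, so at a given F it grows with the fold change.

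ATPase genes, 6 in all, summed to 1522 and 772 CPM in BPA and to 1015 and 1038 CPM in normal cells. BPA replicate 1 lay above and BPA replicate 2 below both normal libraries. The ratio of the means was 1.12 with TMM and 0.974 on all reads. Psmc1, or Rpt2, which helps to open the gate, had the highest mean read number of the members, with 6120 and 1786 reads in BPA and 5375 and 3221 reads in normal cells. Its log2 fold change was 0.27 ± 0.52 (SE), and the normal CPM values lay between the BPA values.

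The other ATPases also overlapped between groups. Psmc2, or Rpt1, had 1559 and 135 reads in BPA and 131 and 531 reads in normal cells, with a log2 fold change of 1.66 ± 1.23 (SE) that was -0.54 without BPA replicate 1. Psmc3, or Rpt5, had 1767 and 337 reads in BPA and 1589 and 730 reads in normal cells. Psmc4, or Rpt3, had 1389 and 319 reads in BPA and 833 and 796 reads in normal cells. In each of these 3 genes BPA replicate 1 was the highest library on CPM. Psmc5, or Rpt6, had 1868 and 786 reads in BPA and 1921 and 2192 reads in normal cells, and Psmc6, or Rpt4, had 391 and 769 in BPA and 1869 and 625 reads in normal cells. The log2 fold changes of Psmc3, Psmc4, Psmc5 and Psmc6 were 0.27, 0.45, -0.25 and -0.50.

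Non-ATPase genes of the 19S particle, 11 in all, summed to 1144 and 2112 CPM in BPA and to 2178 and 2027 CPM in normal cells. BPA replicate 1 was the low library and BPA replicate 2 lay between the normal ones. The ratio of the means was 0.774 with TMM, 0.645 on all reads and 0.849 with size factors. The log2 fold change was negative in 9 of these genes and its median over the 11 was -0.50, though Psmd6 was positive with size factors, with no filter, with DESeq2, without BPA replicate 2 and without normal replicate 1. Psmd14 was positive without BPA replicate 1 (0.52) and Psmd3 without normal replicate 1 (0.64). Of the positive genes, Psmd2 was negative without BPA replicate 2 and among abundant genes alone, and Psmd13 without BPA replicate 1 and without normal replicate 2.

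Psmd7, or Rpn8, the inactive partner of the deubiquitinase Psmd14, had 836 and 2097 reads in BPA and 5578 and 3210 reads in normal cells, which is 245 ± 208 and 448 ± 50.7 CPM (SD, n = 2 each). Both BPA libraries lay below both normal ones, BPA replicate 2 by little, with a log2 fold change of -0.95 ± 0.66 (SE). Psmd14, or Rpn11, which removes ubiquitin chains from substrates, had 751 and 3053 reads in BPA and 4124 and 3410 reads in normal cells. BPA replicate 1 was low and BPA replicate 2 high, and its log2 fold change was -0.34 ± 0.71 (SE).

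Psmd11, or Rpn6, a clamp between core and regulatory particle, had 3 and 183 reads in BPA and 1332 and 584 reads in normal cells. Both BPA libraries were low, with a log2 fold change of -2.82 ± 1.49 (SE) and an adjusted p of 0.386 in edgeR. BPA replicate 2 decided the calls in this group. Without it, edgeR called Psmd7 (-2.21, adjusted p = 0.0354), Psmd11 (-8.05, adjusted p = 0.0329), Psmd14 (-2.18, adjusted p = 0.0423) and the cap gene Psme3 (-6.13, adjusted p = 1.38e-05) as lower, among 229 genes in all. In that fit the lone BPA library is assumed to vary like the normal ones.

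Psmd2, or Rpn1, which docks ubiquitin receptors and Usp14, had 2843 and 3642 reads in BPA and 5012 and 3195 reads in normal cells, with a log2 fold change of 0.23 ± 0.53 (SE). The normal CPM values lay between those of BPA. Psmd1, or Rpn2, a scaffold of the base, had 1176 and 565 reads in BPA and 2041 and 1163 reads in normal cells, with a log2 fold change of -0.41. Psmd4, or Rpn10, a ubiquitin receptor, had 422 and 142 reads in BPA and 920 and 403 reads in normal cells, with a log2 fold change of -0.76. In both genes the BPA values lay below the normal ones, by less than the SE of the fold change, which was 0.77 for Psmd1 and 1.18 for Psmd4.

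The remaining lid subunits overlapped between groups. Psmd3 (Rpn3) had 639 and 135 reads in BPA and 1416 and 286 reads in normal cells, and Psmd6 (Rpn7) had 615 and 166 in BPA and 922 and 181 reads in normal cells. Psmd8 (Rpn12) had 672 and 841 reads in BPA and 1569 and 1451 reads in normal cells, and Psmd12 (Rpn5) had 1616 and 401 reads in BPA and 1900 and 1922 reads in normal cells. Their log2 fold changes lay between -0.64 (Psmd3) and -0.01 (Psmd6). Psmd13 (Rpn9) had 269 and 74 reads in BPA and 323 and 0 reads in normal cells, so its log2 fold change of 0.57 ± 1.52 (SE) rested on a library without reads.

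Psmd5, Psmd9 and Psmd10 encode chaperones that assemble the 19S base. Psmd9 (p27) had 702 and 1 reads in BPA and 1106 and 733 reads in normal cells, and Psmd10 (gankyrin) had 1027 and 1 in BPA and 252 and 103 reads in normal cells. Both were nearly absent from BPA replicate 2 alone. Psmd5 (S5b) had 232 and 499 reads in BPA and 422 and 344 reads in normal cells, with the groups overlapping. The log2 fold changes of Psmd9, Psmd10 and Psmd5 were -0.99, 1.92 and 0.46.

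Cap genes, 5 in all, summed to 33.1 and 556 CPM in BPA and to 345 and 483 CPM in normal cells. BPA replicate 1 was far below the other 3 libraries. Psme3, the nuclear cap PA28gamma, had 38 and 2153 reads in BPA and 3201 and 2682 reads in normal cells, and its log2 fold change was -0.75 ± 0.96 (SE). BPA replicate 2 alone was above both normal libraries on CPM. Psme4, or PA200, known for its role in histone degradation in the testis, had 245 and 264 reads in BPA and 515 and 651 reads in normal cells, with a log2 fold change of -0.74 ± 1.23 (SE). Its CPM values overlapped.

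Psme1 and Psme2 form the interferon-inducible cap PA28. Psme1 had 0 reads in both BPA libraries and 84 and 249 reads in normal cells, at least 80.1-fold lower in BPA against the same floor. Its adjusted p was 0.386 in edgeR and 0.230 in DESeq2. Psme2 did not share this pattern, with 2 and 301 reads in BPA and 185 and 73 reads in normal cells. Psme2b, a near-identical copy of Psme2, had 0 and 257 reads in BPA and 0 and 113 reads in normal cells, and how reads were divided between the copies is uncertain. Psmc3ip, outside the proteasome, had 0 and 1 reads in BPA and 227 and 56 reads in normal cells, with a log2 fold change of -7.38 ± 3.43 (SE) and the smallest unadjusted p of the members in edgeR, 0.0512 (adjusted p 0.372).

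Genes that work with the proteasome were taken from 5 lists of 63 genes, of which 60 were in the table and 54 were tested. edgeR called 0 of them at an adjusted p of 0.05, and 29 had positive and 25 negative log2 fold changes (median 0.06). At an unadjusted p under 0.05, 3 were higher (2.41% of all tested genes) and 2 lower (7.23% of all). Assembly factors and inhibitors had 5 positive and 2 negative of 7 tested, associated receptors and deubiquitinases 5 and 7 of 12, ubiquitin supply 6 and 7 of 13, NRF1, NRF2 and p97 genes 4 and 6 of 10, and interferon and class I antigen processing genes 9 and 3 of 12.

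Of the genes under that p, Usp14 and Uchl5 encode the deubiquitinases that bind the 19S particle. Usp14, which trims ubiquitin chains at Psmd2, had 2976 and 2422 reads in BPA and 1353 and 804 reads in normal cells, which is 346 and 453 CPM in BPA and 117 and 103 CPM in normal cells. Both BPA libraries were far above both normal ones, and the log2 fold change was 1.84 ± 0.64 (SE), with an unadjusted p of 0.0123 that became 0.372 when adjusted in edgeR. Uchl5, which also trims chains, had 862 and 1334 reads in BPA and 71 and 407 reads in normal cells, and its log2 fold change was 2.70 ± 1.14 (SE), with an unadjusted p of 0.0338 that became 0.372 when adjusted in edgeR. The groups did not overlap, the log2 fold change lay between 1.74 and 4.80 over the fits that each leave out a library, and without BPA replicate 1 edgeR called Uchl5 as higher (3.24, adjusted p = 0.0299).

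Canx, a chaperone of class I molecules, had 20357 and 21189 reads in BPA and 19774 and 11689 reads in normal cells, with a log2 fold change of 0.97 ± 0.35 (SE), an adjusted p of 0.372 in edgeR and an adjusted p of 0.0374 in DESeq2. Both BPA libraries were higher on CPM. Erap1, which trims the peptides that proteasomes produce, had 0 reads in both BPA libraries and 470 and 284 in normal cells, at least 181-fold lower in BPA against the floor, with an adjusted p of 0.0347 in DESeq2. Tap2, which carries those peptides across the membrane of the endoplasmic reticulum, had 1 and 0 reads in BPA and 515 and 246 reads in normal cells, with an adjusted p of 0.372 in edgeR and of 0.0572 in DESeq2. Nfe2l1, encoding NRF1, had 1806 and 837 reads in BPA and 3951 and 1731 reads in normal cells, with a log2 fold change of -0.62 ± 0.64 (SE), its higher BPA value, 210 CPM, close to its lower normal value, 222 CPM.

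Peaks of m6A were given in the authors' deposited table as regions whose enrichment in the immunoprecipitate (IP) over the input differed between conditions, with 1 pooled value per condition and no replicates. The table held 21 peaks in 16 members, among 3331 peaks in 2295 genes. A peak was present in 39.0% of members and in 17.5% of genes of the count table. Among genes that averaged 1000 reads or more the shares were 10 of 14 members (71.4%) and 56.7% of all such genes. Of the member peaks in the authors' deposited table, 12 had a positive log2 fold change, meaning more enrichment in BPA, and 9 a negative one (57.1% positive, beside 68.8% of all peaks). All 21 had a false discovery rate of 0.000827 or less in the authors' deposited table. The largest over all 3331 peaks was 0.0147, so a low rate does not set the member peaks apart.

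Input levels mostly moved opposite to the enrichment. The enrichment is IP over input, so this opposition is partly built into its definition. The values in RPM, reads scaled to a total, were whole multiples of a fixed step, which gave the reads behind them. In BPA 1 read was worth 0.256 RPM in the IP and 1.22 RPM in the input. In normal cells it was worth 0.185 RPM in the IP and 0.587 RPM in the input. The step puts the input total at 818212 reads in BPA and 1703692 in normal cells, fewer than any RNA-seq library held. The peaks alone summed to 894159 RPM in the BPA input and 884773 RPM in the normal input. RPM is therefore not a share of a whole library. Reads are given below to show depth, and levels were compared between conditions on RPM. In well covered peaks the log2 fold changes in the authors' deposited table exceeded the log2 ratio of the RPM ratios by a constant of 0.78. Well covered means at least 100 reads in all 4 pooled columns, which 1016 peaks had. With fewer reads the excess can differ, as in the second Psmc3 peak (4.62 against 3.89), and with a column at 0 the ratio can be undefined. Of the 12 peaks with more enrichment in BPA, 11 had a lower input RPM in BPA and 7 a higher IP RPM. Their median input was 1.5 reads in BPA and 409.5 reads in normal cells. All 9 peaks with less enrichment in BPA had a higher input RPM in BPA, and 7 had a lower IP RPM. Over all peaks in the authors' deposited table the BPA input was lower in 82.9% of those with more enrichment and higher in 79.9% of those with less. The BPA IP was higher in 71.8% of those with more enrichment and lower in 84.5% of those with less. The input held 1 read or none in BPA in 7 of the 21 member peaks (33.3%), beside 20% of all peaks. The part of input depth in these fold changes was not tested.

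**Figure D4:**
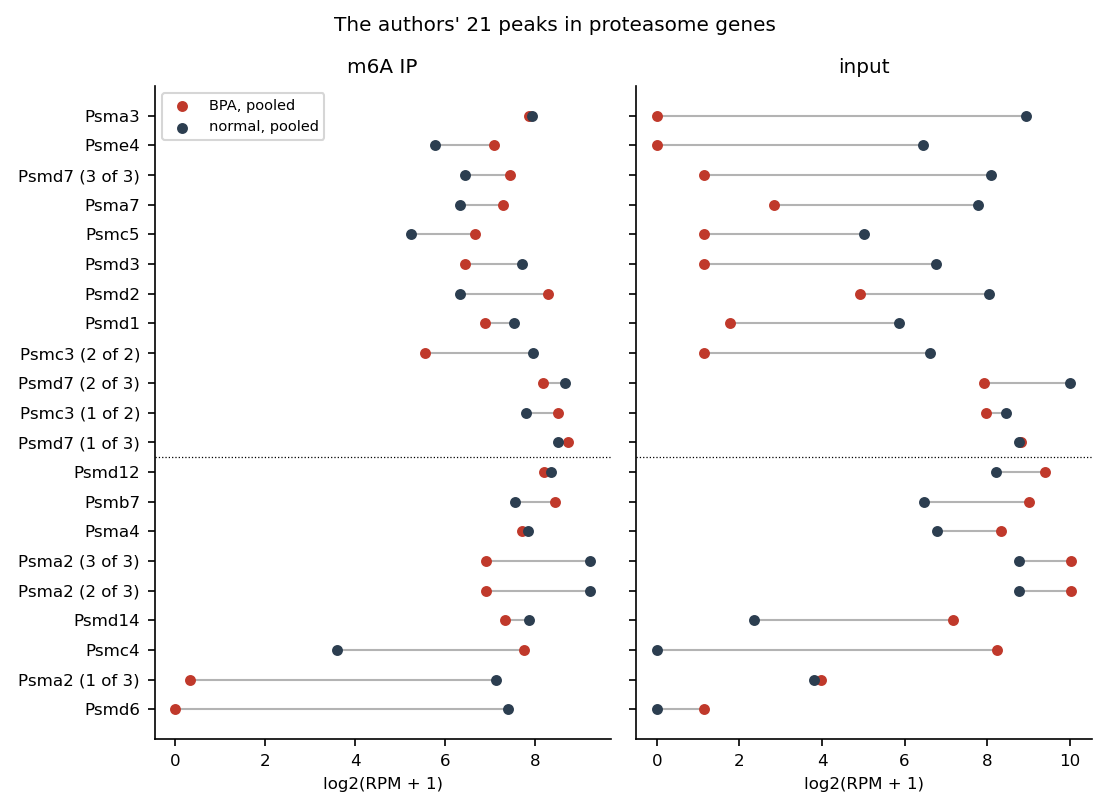
Pooled log2(RPM + 1) of the 21 peaks in the m6A IP (left) and the input (right), BPA in red and normal cells in dark blue, ordered by the authors' log2 fold change, with peaks of more enrichment in BPA above the dotted line and numbers in brackets for genes with several peaks. Above the line the BPA input is lower in 11 of 12 peaks, and below it the BPA input is higher in 9 of 9.

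Among peaks with at least 100 reads in all 4 pooled columns there were 8 in 6 members. Of these in the authors' deposited table, 3 had more enrichment in BPA and 5 less (37.5% positive, beside 52.4% of 1016 such peaks). On the RPM ratios, without the constant, the members' count was the same and 40.8% of the 1016 peaks were positive, so the background there turns mostly negative. Psmd7 had a peak at chr8:108307063-108307162 (GRCm39, minus strand) with 1672 IP and 365 input reads in BPA and 1985 IP and 746 input reads in normal cells, and a log2 fold change of 0.97 in the authors' deposited table. The ratio of its RPM ratios alone was 0.19 on the log2 scale. Its peak at chr8:108307488-108307612 had 1123 IP and 198 input reads in BPA and 2213 IP and 1746 input reads in normal cells, with 2.35 in the authors' deposited table. The first peak had nearly equal input in both conditions, 446 RPM in BPA and 438 RPM in normal cells, and the second had 242 RPM in BPA and 1025 RPM in normal cells.

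Psmc3 had a peak at chr2:90886230-90886379 (plus strand) with 1436 IP and 203 input reads in BPA and 1198 IP and 593 input reads in normal cells, and a log2 fold change of 1.99 in the authors' deposited table. Psma2 had neighbouring peaks at chr13:14800061-14800085 and chr13:14800111-14800135 (plus strand), both with 465 IP reads in BPA and 3230 in normal cells and with 855 input reads in BPA. With equal IP counts the pair may share its reads. Counted once, it leaves 20 member peaks, 12 with more and 8 with less enrichment, and 7 peaks with at least 100 reads, 3 with more and 4 with less (42.9% positive). Their log2 fold changes in the authors' deposited table were -2.83 and -2.81, with an IP of 119 RPM in BPA and 598 RPM in normal cells.

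Psma4 at chr9:54863622-54863671 (plus strand) had 815 IP and 261 input reads in BPA and 1237 IP and 186 input reads in normal cells, with -0.90 in the authors' deposited table. Psmb7 at chr2:38523913-38530143 (minus strand, 2 blocks) had 1359 IP and 422 input reads in BPA and 1013 IP and 148 input reads in normal cells, with -0.90 in the authors' deposited table. Psmd12 at chr11:107376623-107377299 (plus strand, 2 blocks) had 1142 IP and 553 input reads in BPA and 1773 IP and 502 input reads in normal cells, with -0.59 in the authors' deposited table. Without the constant of 0.78 the log2 ratio of their RPM ratios was -1.68 for Psma4, -1.68 for Psmb7 and -1.37 for Psmd12.

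The largest log2 fold changes stood on inputs near 0. Psma3 at chr12:71040323-71041127 (plus strand) had 909 IP and 0 input reads in BPA and 1326 IP and 829 input reads in normal cells, with 10.69 in the authors' deposited table. Psme4 had 531 IP and 0 input reads in BPA and 291 IP and 147 input reads in normal cells, with 9.60 in the authors' deposited table. The third peak of Psmd7 had 677 IP and 1 input reads in BPA and 464 IP and 464 input reads in normal cells, with 9.54 in the authors' deposited table. In each the IP differed far less than the input.

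Psma7, Psmc5, Psmd3, Psmd1 and the second Psmc3 peak had 1 to 5 input reads in BPA and 53 to 374 in normal cells, with log2 fold changes between 4.62 and 6.90 in the authors' deposited table. Psmd2 at chr16:20474142-20474363 (plus strand) had 1224 IP and 24 input reads in BPA and 428 IP and 445 input reads in normal cells, with 5.91 in the authors' deposited table. It was the member peak with the largest excess of IP reads in BPA among those of more enrichment.

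On the side of less enrichment, Psmd14 at chr2:61614191-61614215 (plus strand) had 626 IP and 117 input reads in BPA and 1256 IP and 7 input reads in normal cells, with -4.88 in the authors' deposited table. Psmc4 had 843 IP and 246 input reads in BPA and 60 IP and 0 input reads in normal cells, with -5.34 in the authors' deposited table, so its IP and its input were both higher in BPA. Psmd6 had 0 IP and 1 input reads in BPA and 906 IP and 0 input reads in normal cells, with -12.52 in the authors' deposited table. The first Psma2 peak had 1 IP and 12 input reads in BPA and 750 IP and 22 input reads in normal cells, with -8.49 in the authors' deposited table. In these last peaks the IP reads were almost all from normal cells. Psma5, Psmb1, Psmb10 and Psme1, the subunits nearly without RNA-seq reads in BPA, had no peak in the authors' deposited table. For comparison, 39.0% of members and 17.5% of genes of the count table had a peak. Over the 4 RNA-seq libraries these genes averaged between 83 (Psme1) and 165 (Psma5) reads, and a link with RNA level was not tested.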

How the data were processed

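Polyadenylated TM3 RNA was fragmented and split for RNA-seq and m6A immunoprecipitation, per the labels' protocols. Groups and replicate numbers came from the sample titles. The authors deposited whole read counts per Ensembl gene. The submitters' processing notes name the tools HISAT2 2.2.1, fastp 0.20.1, DESeq2 1.38.3 and featureCounts 2.0.1, and the builds GRCm39 and GRCh38 with no role. Settings for strand and multi-mapping reads, the peak caller and the peak test: not given in the sources used here. Column names of the count table state condition and replicate but not the assay. They were read as RNA-seq, because the notes name a read counter and RNA-seq is described as the input. Of 12404 gene IDs 98.9% had a symbol.

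The RPM values were deposited by the authors pooled per condition, scaled to a total that is not stated. They were whole multiples of a read in 100% of peaks within 0.1 read, and pooling left no replicate to test. The size of that read implies totals of 3908372 (IP) and 818212 (input) reads in BPA and 5402183 (IP) and 1703692 (input) in normal cells. The log2 fold change per peak was deposited by the authors and exceeded the log2 ratio of the RPM ratios by 0.78. The p-value and false discovery rate were deposited by the authors, as was a score equal to the −log10 of that p-value. Peak coordinates (1-based) were read as GRCm39, since 1 of 21 member peaks lay inside its gene in GRCm38. Exons and UTRs were not analysed here.

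The test was edgeR 4.0.16 (R 4.3.3) on the counts (filterByExpr, TMM, robust glmQLFit with bias-adjusted deviance, glmQLFTest), over all 4 RNA-seq libraries and 8645 genes with Benjamini-Hochberg adjustment, and the code was tested on simulated data. The SE of an edgeR log2 fold change is its absolute value divided by the square root of the F statistic. DESeq2 1.42.0 was an alternative. Other alternatives were size factors, no filter, a replicate block, each library left out, only genes averaging 1000 reads or more, another denominator for shares and edgeR's classic dispersion. Bounds use a floor of 3 counts over a group and cover counting error only. All members may be named; genes of the lists are named at an unadjusted p under 0.05 or with a peak, and Nfe2l1 as a gene with peaks. Members, lists, motifs and tests were chosen with earlier results of these data known. No per-sample column was left unused (0).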

Additional observations from a re-analysis of the deposited data

How the results depend on the processing

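The count of members called by edgeR, 0, was 0 with size factors, without the filter, with the classic dispersion (an alternative chosen after seeing the data), among genes averaging 1000 reads or more, and with a replicate block. DESeq2 called 1 member and 264 of all genes. Leaving out each library gave 0 to 4 members and 0 to 234 of all genes. The counts without BPA replicate 1, without BPA replicate 2 and without normal replicate 1 were 0, 4 and 0 members and 234, 229 and 1 genes. At an unadjusted p under 0.05 the count of members, 0, was 1 with size factors, 1 without the filter, 3 with DESeq2, 3 with the classic dispersion and 0 to 11 over the fits that leave out a library. All genes under that p numbered 833 in the main analysis, 757 with size factors, 590 without the filter, 1113 with DESeq2, 1212 with the classic dispersion and 50 to 1740 over the fits that leave out a library. The median log2 fold change of tested members, Psmc3ip included, was -0.16. It was -0.0206 with size factors, -0.43 over the 14 members averaging 1000 reads or more and -0.46 to -0.14 with a library left out. The median of all tested genes moved too, from -0.02 to 0.12 with size factors and 0.07 over genes averaging 1000 reads or more. With a library left out it was -0.80 to 0.11, and without BPA replicate 1 it was -0.80 beside -0.46 for members. With only those abundant genes as denominator the members' share of reads was 0.607% and 0.604% for BPA, against 0.767% and 0.732% for normal cells. The deviations of same-numbered libraries had a correlation of -0.000963 across genes. With 2 pairs, this cannot tell whether the replicate numbers pair the libraries. The replicate block gave 0 members, a median of -0.14 and 216 genes at an unadjusted p under 0.05. Of 421 values of 45 named genes under alternatives, 413 kept their side of the threshold and 8 passed it, Psma5, Erap1 and Canx with DESeq2, Uchl5 without BPA replicate 1, and Psmd7, Psmd11, Psmd14 and Psme3 without BPA replicate 2. The sign held under every alternative run in 24 genes and differed under at least 1 in 21, most of them on leaving out a BPA library. Where a value moved, the cause was not tested. The median member had 615 reads in BPA replicate 1 and 319 in BPA replicate 2, beside 864 and 531 for the normal replicates. Of the 41 members, those at 1 read or none numbered 7 in BPA replicate 1 and 9 in BPA replicate 2, beside 38.4% and 47.4% of all rows. In normal replicates 1 and 2 they numbered 1 and 1, beside 25.8% and 19.9% of all rows. BPA replicates lay more than 4-fold apart in 14 members, among them Psme3 with 38 and 2153 reads. The fold changes that 2 libraries a group can resolve are limited, and the parts of read depth and replicate spread in this were not tested.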

Other observations

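Genes of the ubiquitin supply and of proteasome control also carried peaks. The authors' deposited table held 28 peaks in 18 genes of the pathway lists, 18 with more and 10 with less enrichment in BPA (64.3% with more, beside 68.8% of all peaks). Nfe2l1, encoding the transcription factor NRF1, had 3 peaks with log2 fold changes of 3.99, 5.27 and 7.87 in the authors' deposited table. The first had 1167 IP and 11 input reads in BPA and 1276 IP and 168 input reads in normal cells, and the second had 1005 IP and 2 input reads in BPA and 2751 IP and 186 input reads in normal cells. The third, at chr11:96718901-96718925 (GRCm39, minus strand), had 1263 IP and 149 input reads in BPA and 12 IP and 292 input reads in normal cells. In that peak the IP differed most, and in the other Nfe2l1 peaks the input did.

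Ubb, which encodes ubiquitin, had a peak with 637 IP and 188 input reads in BPA and 1026 IP and 166 input reads in normal cells, with a log2 fold change of -0.68 in the authors' deposited table. Vcp, the p97 ATPase that extracts ubiquitinated proteins, had 1004 IP and 7 input reads in BPA and 602 IP and 360 input reads in normal cells, with 6.61 in the authors' deposited table. Psmf1, an inhibitor of the core, had 692 IP and 1 input reads in BPA and 1511 IP and 327 input reads in normal cells, with 7.36 in the authors' deposited table. In the count table Psmf1 had 0 and 1 reads in BPA and 0 and 537 reads in normal cells, so its RNA-seq reads came almost wholly from a single library. Usp14 and Uchl5 had no peak in the authors' deposited table, where 17.5% of genes of the count table had one.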
